A study of Mus musculus with 72 samples.

Results

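The insulin-like growth factor (IGF) axis was followed on 72 arrays through 9 genes, which were chosen by symbol. They were the ligand gene Igf1, the receptor gene Igf1r, Igfals, and the binding protein genes Igfbp2, Igfbp3, Igfbp4, Igfbp5, Igfbp6 and Igfbp7, and together they made up 9 of the 12265 genes with a tested probe. A probe was tested when its detection p-value was under 0.05 on at least 3 arrays, which held for 11 of the 12 probes of these genes. The other one, a second probe for Igfbp7, was above background on 0 arrays.

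The arrays were Illumina MouseRef-8 bead arrays, hybridised with RNA of adipose tissue from C57BL/6J mice. The mice lacked in adipose tissue Lipe, which encodes hormone-sensitive lipase (HSLAKO), Pnpla2, which encodes adipose triglyceride lipase (ATGLAKO), both lipases (DAKO), or neither (control). DAKO mice came from crosses of the single knockouts. In HSLAKO mice both Lipe alleles were floxed and exon 1 was removed by Cre from a Fabp4 promoter, which acts in adipocytes but also in some macrophages, and control mice carried the Fabp4-Cre transgene alone. Interscapular brown adipose tissue (BAT) came at 3, 7 and 12 months from 5, 4 and 4 arrays labelled DAKO, 5, 4 and 4 labelled ATGLAKO, 4 at each age labelled HSLAKO, and 5, 4 and 4 labelled control. A further 5 arrays were labelled DAKO BAT at 14 months. Perigonadal white adipose tissue (WAT) at 3 months gave 4 arrays labelled DAKO, 5 ATGLAKO, 4 HSLAKO and 3 control. The mice were fasted for a short time before the tissue was taken, and each array held the RNA of 1 mouse. The names of 8 mice, 4 DAKO and 4 HSLAKO, stand on arrays of both tissues. A further 4 ATGLAKO names and 1 control name differ between the tissues by a leading letter only, so these may be the same mice too. The BAT included tumors, and the labels do not say which arrays held tumor RNA.

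IGF-I, made in liver and in many other tissues including adipose tissue, acts through the receptor tyrosine kinase encoded by Igf1r. In blood most of it travels in a complex of the ligand, a binding protein such as that of Igfbp3 or Igfbp5, and the acid-labile subunit encoded by Igfals, a gene that growth hormone activates in liver. The binding proteins hold IGFs away from the receptor or deliver them to it, and proteases that cut the binding proteins release the ligand.

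The upstream sequences are shown for the members that were called in at least 1 comparison and that held 1 of a pair of motifs in the 250 bases before a start site. RefSeq (GRCm38.p6) gave windows for 9 of 9 members and 12 start sites. The palindrome TTCNNNGAA, the type of site that STAT5 binds downstream of the growth hormone receptor, was searched on both strands. It was in 7.02% of all 32851 windows, and among the members it was in 1 gene, at 2 of the 3 start sites of Igfals. TATAAA, the core of the TATA box, was likewise searched on both strands and was in 12.4% of all windows, with matches in 2 members, Igfbp4 and Igfbp6. The 4 sequences are read 5′ to 3′ on the plus strand, with the motif in capitals, which starts at -236 and -58 relative to the start sites of Igfals and at -28 relative to that of Igfbp4. In Igfbp6 it starts at -148 and lies on the minus strand, so that the capitals read as its reverse complement.
Igfals, upstream start, chr17:24877594-24877843: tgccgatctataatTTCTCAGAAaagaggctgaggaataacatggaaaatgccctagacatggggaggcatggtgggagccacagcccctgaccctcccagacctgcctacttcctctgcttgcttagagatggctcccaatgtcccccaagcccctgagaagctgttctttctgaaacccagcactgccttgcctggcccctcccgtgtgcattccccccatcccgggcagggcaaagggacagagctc
Igfals, middle start, chr17:24877981-24878230: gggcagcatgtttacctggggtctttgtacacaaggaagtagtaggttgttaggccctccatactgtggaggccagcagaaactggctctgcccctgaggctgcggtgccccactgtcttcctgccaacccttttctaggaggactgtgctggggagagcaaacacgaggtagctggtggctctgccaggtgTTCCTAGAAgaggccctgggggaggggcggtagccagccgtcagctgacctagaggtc
Igfbp4, chr11:99040994-99041243: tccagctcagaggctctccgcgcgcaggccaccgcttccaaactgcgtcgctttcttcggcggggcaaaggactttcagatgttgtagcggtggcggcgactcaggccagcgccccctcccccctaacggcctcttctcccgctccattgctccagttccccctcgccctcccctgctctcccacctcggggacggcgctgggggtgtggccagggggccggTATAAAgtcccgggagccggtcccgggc
Igfbp6, chr15:102143936-102144185: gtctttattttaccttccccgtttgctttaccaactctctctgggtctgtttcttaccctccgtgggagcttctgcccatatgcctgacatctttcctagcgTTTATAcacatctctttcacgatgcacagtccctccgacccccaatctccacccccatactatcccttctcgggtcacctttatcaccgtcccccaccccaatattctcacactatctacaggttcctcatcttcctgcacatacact
A match is a description of these letters and shows no binding. The windows of Igf1r, Igfbp3, Igfbp7 and Igfbp4 held 42, 32, 26 and 22 CpG dinucleotides, against a median of 6 over all windows and 3 to 5 in those of Igfals and Igf1.

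Values below are log2 signals after background correction and quantile normalization, and levels of different probes cannot be set against each other. Raw array medians ran from 94.7 to 160.6 and 44.8 to 54.8% of probes were detected. Several arrays went against their labels. Upk3b, a marker of the mesothelium that lines visceral fat, exceeded a log2 signal of 8 on 16 arrays and did not pass 5.32 elsewhere. Among them were all 8 arrays labelled control BAT at 7 and 12 months and 3 of the 8 labelled ATGLAKO BAT at those ages. The rest were WAT, 4 of the 5 ATGLAKO arrays and 1 of the 3 control arrays. On these 16 arrays the mean of the 11 mesothelium markers was 6.09 to 7.71, against 4.33 to 5.59 on the other arrays, and the mean of the 7 brown adipocyte markers was 4.92 to 7.07. Upk3b is itself in the mesothelium list, and the mean of the other 10 markers was 5.78 to 7.40 on the 16 arrays, against 4.30 to 5.67 on the other 56. Cdkn2a, a cell cycle inhibitor gene, was above 8 on 5 other arrays and reached 5.72 at most on the rest. These were DAKO BAT replicates 3 and 4 at 7 months and replicate 1 at 12 months, and HSLAKO BAT replicates 1 and 2 at 12 months. Of the remaining 51 arrays, 43 had Ucp1, the thermogenic gene of brown adipocytes, at 11.35 or more and 8 had it at 7.79 or less. Most arrays labelled WAT at 3 months were among the 43. The targeted genes did not separate the labels either, as their ranges overlapped. Pnpla2 had medians of 10.82 (8.68 to 14.14) on arrays labelled DAKO, 13.05 (9.04 to 13.46) on ATGLAKO arrays, 11.28 (7.21 to 14.19) on HSLAKO arrays and 12.71 (9.37 to 13.50) on control arrays. Lipe had medians of 7.20 (4.49 to 9.44) on arrays labelled DAKO, 6.24 (4.48 to 9.19) on HSLAKO arrays, 9.51 (5.34 to 10.37) on ATGLAKO arrays and 9.40 (6.56 to 9.95) on control arrays. The Lipe medians were thus lower on DAKO and HSLAKO arrays, whereas the Pnpla2 median was highest on ATGLAKO arrays. Where the probes lie relative to the deleted exons was not determined. The 4 array classes (Cdkn2a, Upk3b, Ucp1 low, Ucp1 high) were set by measured values, so members are described across them without a test.

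Of 29 comparisons, 5 called at least 1 member, with 8 calls in all. Against control BAT at 7 months, DAKO called 1 of 9 members (0.815% of all genes) and HSLAKO 3 (0.921%). At 12 months each called 1 (3.82 and 4.45% of all genes). Control BAT at 12 against 3 months called 2 (7.03%). Igfals accounted for 4 of these, all lower in arrays labelled DAKO or HSLAKO than in control BAT at 7 or 12 months. Igfbp6 was called in 2 comparisons and Igfbp4 and Igfbp5 in 1 each, while Igf1, Igf1r, Igfbp2, Igfbp3 and Igfbp7 were called in none. Outside the 29, the same kind of test was run for the change of the ATGLAKO and HSLAKO effects between ages or tissues. It called Igfbp5 and Igfbp6 for the HSLAKO effect in BAT at 7 against 3 months, where 3.56% of all genes were called. A call needed an adjusted p under 0.01 in limma, with Benjamini-Hochberg adjustment over all probes tested, and a log2 fold change of more than 1.5 up or down. The median log2 fold change of the 9 members was -0.86 for DAKO and -1.07 for HSLAKO against control BAT at 7 months, where all genes tested had medians of 0.02 and 0.03. In control BAT at 12 against 3 months it was 1.28, where all genes had -0.0078. In each of these comparisons 1 side held only control arrays with Upk3b above 8. In whole tissue, fewer cells of a type and less RNA per cell cannot be told apart.

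**Figure D1:**
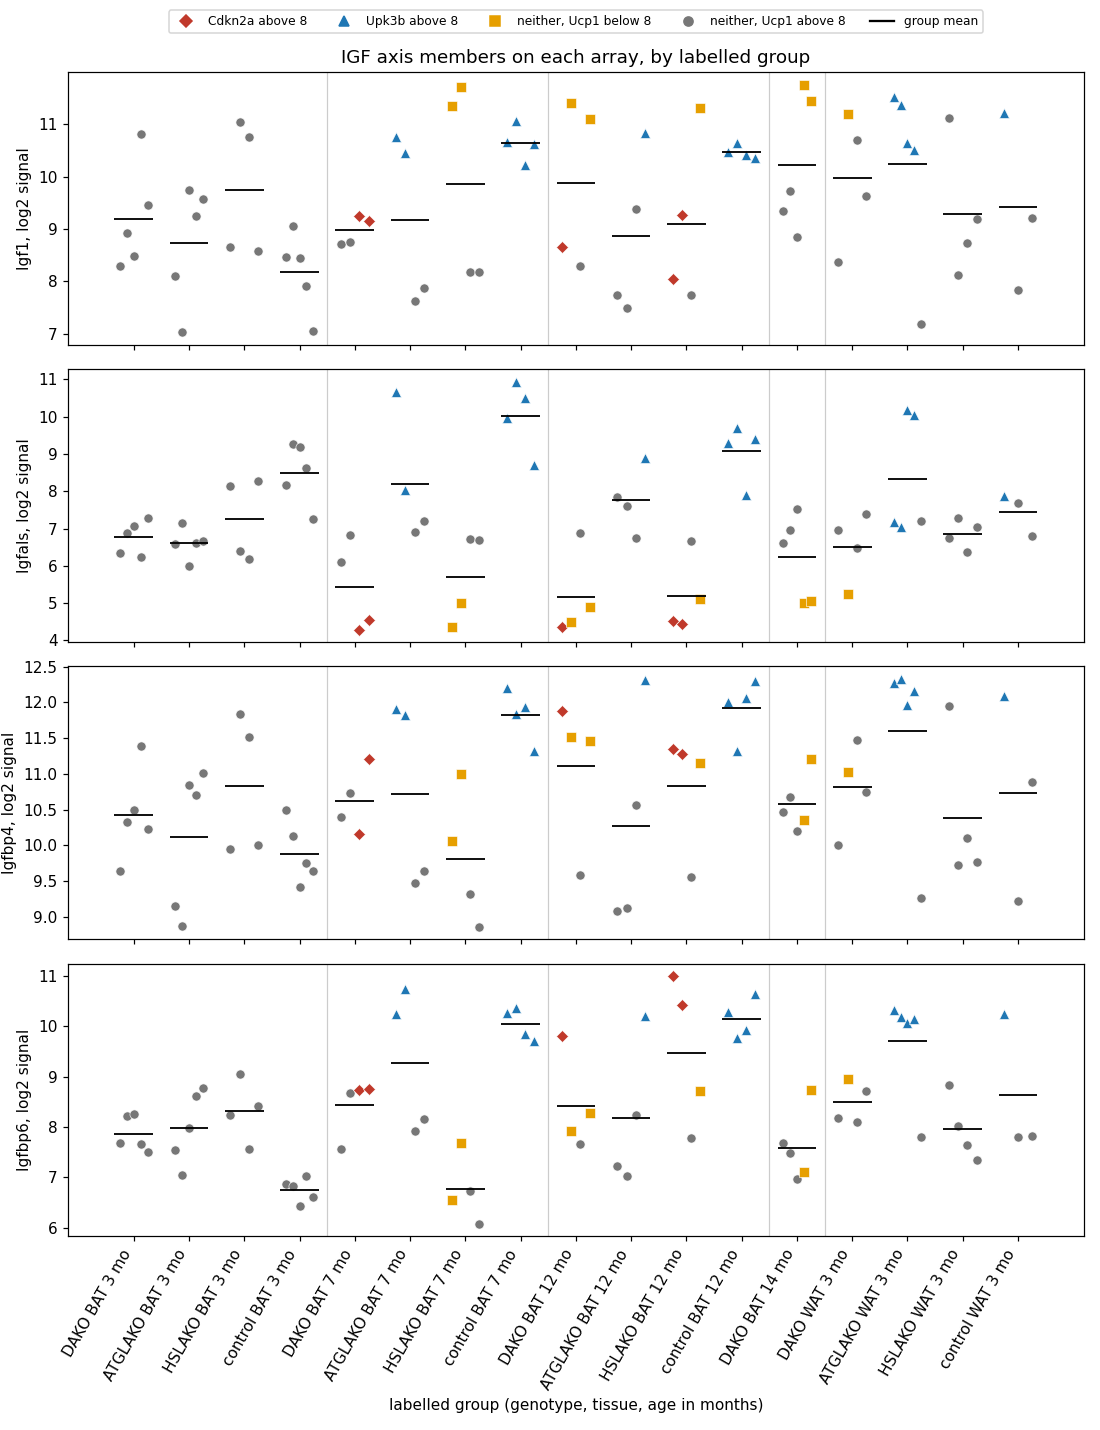
Log2 signal (y axis) of Igf1, Igfals, Igfbp4 and Igfbp6 on each array (point) in the 17 labelled groups (x axis), with the group mean as a bar and the array class as colour and shape. Igfals sits at 5.25 or less on the Cdkn2a and the Ucp1-low arrays and at 6.00 or more on all others.

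Igf1, the gene of the ligand, was not called in any comparison, yet it ran from 7.03 to 11.75 over the arrays. In BAT at 7 months its values were 8.72, 8.76, 9.25 and 9.15 on arrays labelled DAKO, against 10.66, 11.06, 10.21 and 10.61 on control arrays. The groups did not overlap, but the spread over all groups was wide and the log2 fold change of -1.66 ± 0.91 (SE) had an adjusted p of 0.283 in limma. At 3 months the difference had the other sign, with 8.29, 8.93, 8.49, 10.80 and 9.45 in DAKO BAT against 8.46, 9.07, 8.44, 7.92 and 7.05 in control BAT (log2 fold change 1.00 ± 0.81 (SE), adjusted p = 0.498 in limma). The change of this DAKO effect between 3 and 7 months was -2.67 ± 1.22 (SE) on the log2 scale, with an adjusted p of 0.153 in limma. All control arrays at 7 months had Upk3b above 8 and none did at 3 months. Age and this marker thus cannot be told apart in the change of sign. HSLAKO BAT at 7 months split into 11.35 and 11.71 on 2 arrays and 8.18 and 8.18 on the other two, around control values that lay between.

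The high pair of HSLAKO BAT arrays at 7 months were Ucp1-low and the low pair Ucp1-high. Igf1 also varied within a class, with 8.65, 11.03, 10.75 and 8.58 on the HSLAKO BAT arrays at 3 months, which were all Ucp1-high. Over the classes it was 8.05 to 9.27 (median 9.15) on the 5 Cdkn2a arrays, 10.21 to 11.51 (median 10.64) on the 16 Upk3b arrays, 11.10 to 11.75 (median 11.38) on the 8 Ucp1-low arrays and 7.03 to 11.12 (median 8.65) on the 43 Ucp1-high arrays. The Ucp1-low arrays thus lay above every Cdkn2a array, although both classes had Ucp1 and Upk3b below 8. The mean of the 5 macrophage markers measured was 9.39 to 10.19 on Cdkn2a arrays, 7.93 to 10.41 on Upk3b arrays, 10.08 to 11.05 on Ucp1-low arrays and 6.36 to 10.51 on Ucp1-high arrays, and its part in the Igf1 levels was not tested. The genes whose pattern was closest to that of Igf1 over the 72 arrays, out of 8739 candidates, were Adap2, Psen2 and Mpp1, each with a Pearson r of 0.91.

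**Figure D2:**
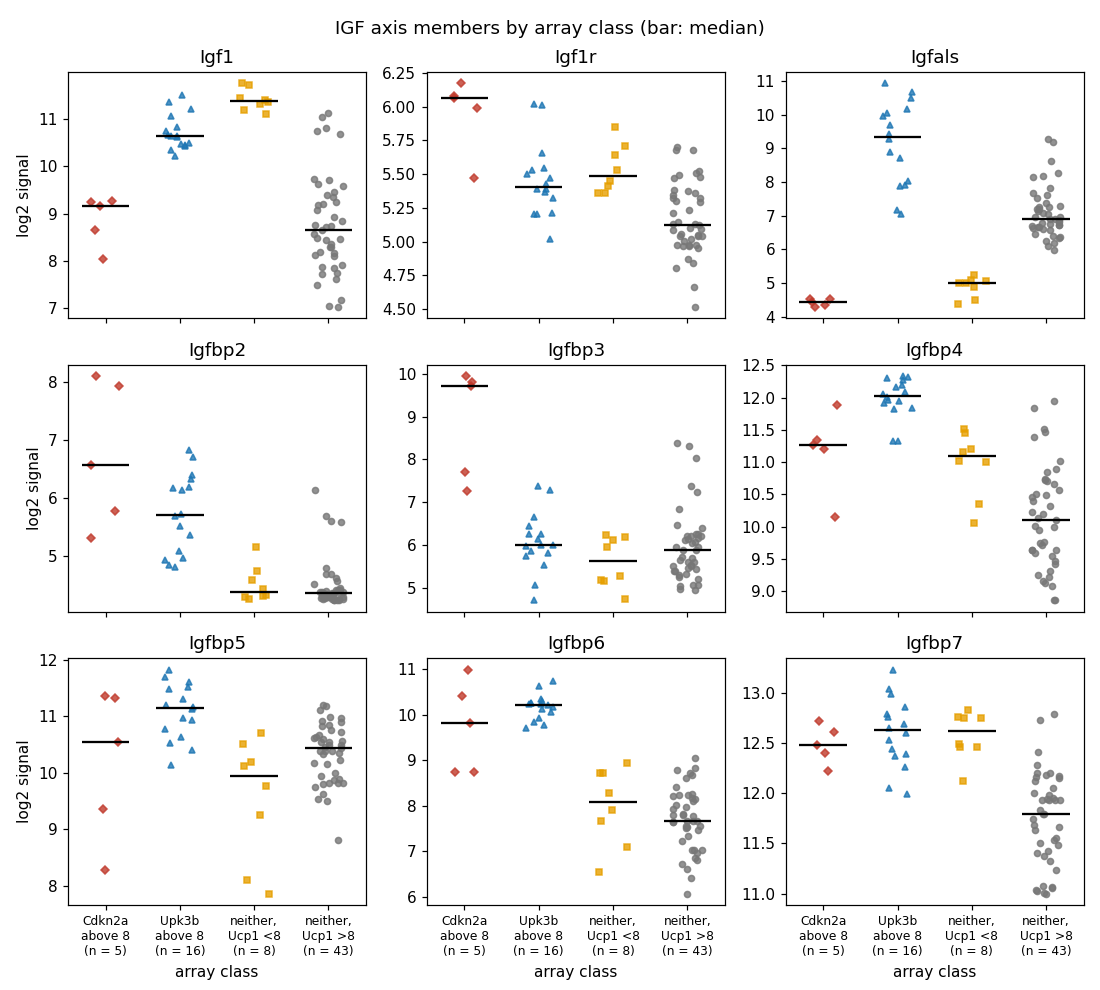
Log2 signal (y axis) of the 9 members on each array (point) in 4 array classes (x axis), with the median as a bar. Igf1 is highest on the Ucp1-low arrays (median 11.38), Igfals on the Upk3b arrays (median 9.35) and Igfbp2 and Igfbp3 on the Cdkn2a arrays (medians 6.57 and 9.72).

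Igf1r, the gene of the receptor, was close to background and varied least, from 4.51 to 6.17. In BAT at 7 months it was 5.49, 5.51, 6.17 and 6.07 on arrays labelled DAKO, against 5.20, 5.42, 5.37 and 5.02 on control arrays. Both Cdkn2a arrays of that DAKO group were the high ones. The groups did not overlap, and the log2 fold change of 0.56 ± 0.22 (SE) had an adjusted p of 0.120 in limma. Across classes the median was 6.07 on Cdkn2a arrays, 5.41 on Upk3b arrays, 5.49 on Ucp1-low arrays and 5.13 on Ucp1-high arrays, and the ranges overlapped. Its closest genes were Ddx20 (r = 0.74), Matr3 (r = 0.71) and Hs2st1 (r = 0.69).

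Igfals, the gene of the acid-labile subunit, was 24.0-fold lower in BAT labelled DAKO than in control BAT at 7 months and 15.2-fold lower at 12 months, and 20.1-fold and 14.8-fold lower in HSLAKO BAT at the same ages. It was above background on 2 of 4 DAKO arrays at each age and on 3 of 4 and 2 of 4 HSLAKO arrays, against all control arrays, so these folds rest in part on values at background. At 7 months it was 6.11, 6.82, 4.29 and 4.54 on DAKO arrays, against 9.96, 10.94, 10.50 and 8.70 on control arrays. The last 2 DAKO values were not above background, and both came from Cdkn2a arrays. The log2 fold change was -4.59 ± 0.72 (SE), with an adjusted p of 1.44e-04 in limma. It was the only member of 9 called in this comparison, where 0.815% of all genes were called. HSLAKO BAT had 4.37, 4.99, 6.72 and 6.70 at that age, all below the control arrays, with a log2 fold change of -4.33 ± 0.72 (SE) and an adjusted p of 3.54e-04 in limma. In that comparison 0.921% of all genes and 3 of 9 members were called.

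At 12 months Igfals was 4.36, 4.49, 6.87 and 4.89 in DAKO BAT, against 9.29, 9.69, 7.91 and 9.41 in control BAT. Its log2 fold change was -3.92 ± 0.72 (SE), with an adjusted p of 1.90e-04 in limma, and again it was 1 of 9 members called, with 3.82% of all genes called. HSLAKO BAT had 4.51, 4.44, 6.68 and 5.10, and was lower by a log2 fold change of -3.89 ± 0.72 (SE) with an adjusted p of 1.55e-04 in limma, as 1 of 9 members against 4.45% of all genes. In each of these groups 1 array, with Ucp1 above 8, stood above the other three, and none reached the control arrays. ATGLAKO BAT had 7.84, 7.61, 6.73 and 8.89 at 12 months, which overlapped the controls (log2 fold change -1.31, 95% interval -2.75 to 0.13, adjusted p = 0.287 in limma). None of 9 members was called there, at a background of 0.383% of genes, with 5 members (and 21.7% of genes) at an unadjusted p under 0.05.

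These calls rest on control arrays that all had Upk3b above 8, while no DAKO or HSLAKO BAT array did, so in BAT at 7 and 12 months the genotype label and this marker cannot be told apart. In the fit of only the compared groups the adjusted p was 0.0273 for DAKO and 0.0207 for HSLAKO at 7 months and 0.0159 for DAKO at 12 months, and without the Cdkn2a arrays it was 0.0254 for DAKO at 7 months and 0.0198 for HSLAKO at 12 months. On the authors' normalized values, which keep the background, the 4 log2 fold changes shrank to between -2.49 and -1.75 and stayed called. Of the 11 mesothelium markers, Upk3b included, 4 and 5 were called lower for DAKO and HSLAKO at 7 months and 6 and 4 at 12 months. The mean of the 5 hepatocyte markers measured was 4.40 to 5.67 in DAKO BAT, 4.44 to 4.69 in HSLAKO BAT and 8.37 to 9.84 in control BAT at 12 months, where 3 and 4 of them were called lower for DAKO and HSLAKO. At 7 months it was 4.57 to 5.21 in DAKO BAT, 4.48 to 8.75 in HSLAKO BAT and 5.36 to 7.58 in control BAT, with 0 called in either comparison. The part of these markers in the Igfals result was not tested.

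**Figure D3:**
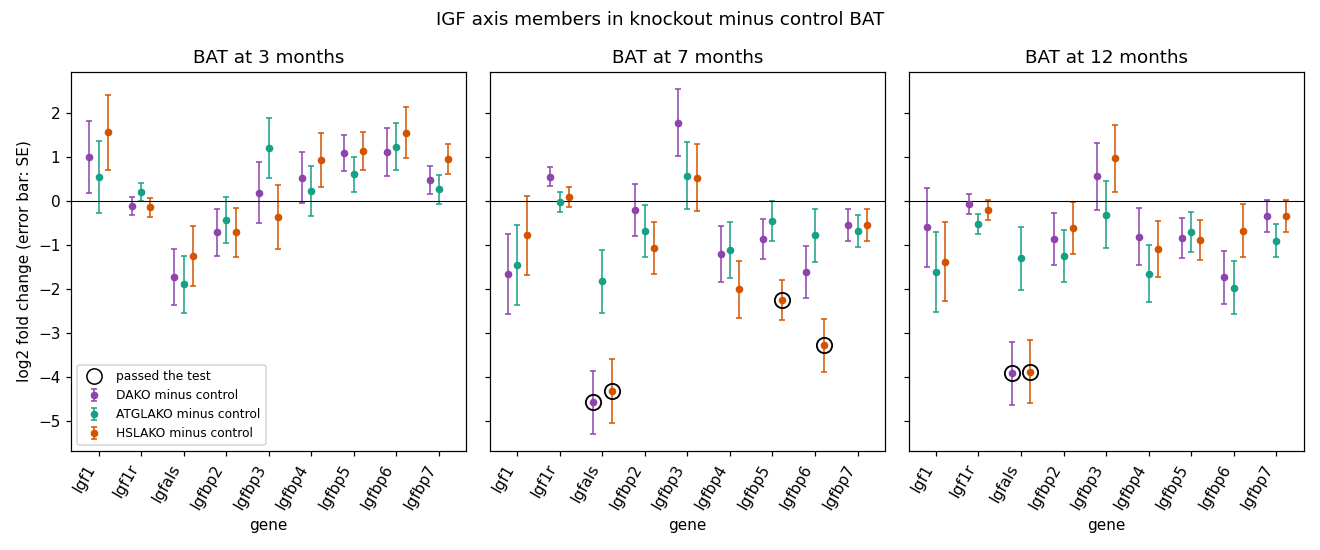
Log2 fold change (y axis, bars: SE) of the 9 members (x axis) in BAT labelled DAKO, ATGLAKO and HSLAKO minus control BAT at 3, 7 and 12 months, with a ring around those that passed the test. Igfals is negative in all 9 comparisons and passes in 4 of them. The values of Igf1, Igfbp4, Igfbp5, Igfbp6 and Igfbp7 are positive at 3 months and negative at 7 months in every genotype. At each age the genotypes share the same control arrays, so these signs are not independent. All control arrays at 7 and 12 months had Upk3b above 8 and none did at 3 months, so age and this marker cannot be told apart.

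Against controls without Upk3b signal, at 3 months, Igfals was lower by less. It was 6.35, 6.89, 7.07, 6.24 and 7.27 in DAKO BAT, against 8.18, 9.28, 9.18, 8.61 and 7.25 in control BAT, where 1 control array lay within the DAKO range. Its log2 fold change was -1.73 ± 0.64 (SE), with an adjusted p of 0.0931 in limma. ATGLAKO BAT had 6.57, 7.15, 6.00, 6.62 and 6.68, all below the controls, with a log2 fold change of -1.89 ± 0.64 (SE) and an adjusted p of 0.122 in limma. For HSLAKO BAT, with 8.14, 6.40, 6.19 and 8.28, it was -1.24 (95% interval -2.61 to 0.12) with an adjusted p of 0.232 in limma. No member was called in these 3 comparisons, in which 0.685, 0.0815 and 1.54% of genes were called for DAKO, ATGLAKO and HSLAKO, and 3, 2 and 3 members (and 23, 15.7 and 27.9% of genes) had an unadjusted p under 0.05.

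Across the classes Igfals was 4.29 to 4.54 on the Cdkn2a arrays, where it was above background on 0 of 5, and 4.37 to 5.25 on the Ucp1-low arrays. On the Upk3b arrays it was 7.04 to 10.94, and on the Ucp1-high arrays 6.00 to 9.28. The first pair of classes overlapped each other, as did the second pair. The 13 arrays with both Ucp1 and Upk3b below 8 held at most 5.25, and the other 59 at least 6.00, whatever their label. In BAT labelled DAKO at 14 months the split recurred, with 6.60, 6.96 and 7.52 on 3 Ucp1-high arrays and 5.01 and 5.06 on the Ucp1-low ones. The mean of the 6 general adipocyte markers was 5.41 to 7.35 on Cdkn2a arrays, 8.41 to 9.63 on Ucp1-low arrays, 10.39 to 11.64 on Upk3b arrays and 10.07 to 11.38 on Ucp1-high arrays, and its part in the Igfals levels was not tested. The genes closest to Igfals were Gstz1 (r = 0.89), which takes part in tyrosine breakdown, Gpt (r = 0.88), an alanine transaminase gene, and Anxa6 (r = 0.86). Without the Upk3b arrays (n = 56) r was 0.90, 0.90 and 0.74.

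**Figure D4:**
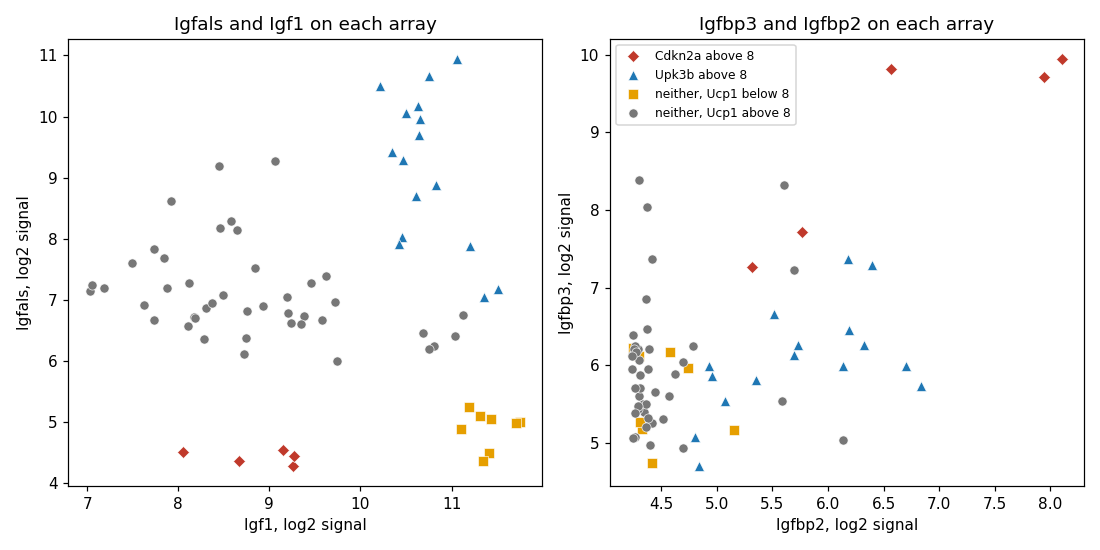
Igfals against Igf1 and Igfbp3 against Igfbp2, both axes as log2 signals, with 1 point per array and the array class as colour and shape. On the Cdkn2a arrays Igfals is 4.29 to 4.54 and Igf1 8.05 to 9.27, and 3 of these arrays carry the highest Igfbp3 values, 9.72 to 9.94.

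Ligand and acid-labile subunit did not move together. Over the 72 arrays r between Igf1 and Igfals was 0.00, and without the 16 Upk3b arrays it was -0.54 (n = 56). Upk3b arrays had Igf1 at 10.21 or more and Igfals at 7.04 or more, and Ucp1-low arrays had Igf1 high and Igfals low. Cdkn2a arrays had Igfals at background with Igf1 at 8.05 to 9.27, below its median of 9.31 over all arrays. These correlations describe arrays that share tissue and class.

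Igfbp2 and Igfbp3, binding proteins of the circulation and of tissues, stood out on the Cdkn2a arrays without being called in a labelled comparison. Igfbp2 was above background on 26 of 72 arrays. It was detected on 5 of 5 Cdkn2a arrays at 5.31 to 8.10 and on 16 of 16 Upk3b arrays at 4.81 to 6.84, but on 1 of 8 Ucp1-low and 4 of 43 Ucp1-high arrays. In BAT at 12 months it was 8.10, 4.25, 4.40 and 4.33 on DAKO arrays, against 6.70, 6.14, 6.33 and 5.36 on control arrays. A single DAKO array, the Cdkn2a one, was high and the other three were not above background. This gave a log2 fold change of -0.86 ± 0.59 (SE) with an adjusted p of 0.341 in limma. Without the Cdkn2a arrays it was -1.80. The array dropped was the high one, so this larger difference is no test of genotype. The control arrays on the other side all had Upk3b above 8. The second Igfbp2 probe followed the first over the arrays (r = 0.89).

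Igfbp3 was 7.27 to 9.94 (median 9.72) on the Cdkn2a arrays, 4.71 to 7.37 (median 5.99) on the Upk3b arrays, 4.75 to 6.23 (median 5.62) on the Ucp1-low arrays and 4.94 to 8.38 (median 5.88) on the Ucp1-high arrays. In BAT at 7 months it was 5.61, 5.66, 7.71 and 9.82 on DAKO arrays, against 6.14, 4.71, 5.74 and 5.07 on control arrays. Only the 2 Cdkn2a arrays were above the controls. Over all 4 DAKO arrays the log2 fold change was 1.79 ± 0.76 (SE) with an adjusted p of 0.148 in limma. At 12 months DAKO BAT had 9.94 on its Cdkn2a array and 6.23, 4.97 and 5.18 on the others, against 5.99, 5.99, 6.26 and 5.81 in control BAT, and the sign of the log2 fold change turned when that array was left out (0.57 with it and -0.55 without it). Igfbp3 was also high on some arrays of other genotypes and classes. It was 8.38, 7.37 and 8.32 on 3 of the 5 ATGLAKO BAT arrays at 3 months. DAKO BAT replicate 3 at that age had 8.04 and HSLAKO WAT replicate 1 had 7.23. Cdkn2a was at 4.28 or less on these arrays. Over all arrays r between Igfbp2 and Igfbp3 was 0.57. The gene closest to Igfbp2 was Nt5e, which encodes the cell surface enzyme CD73 (r = 0.82), and the one closest to Igfbp3 was Grasp (r = 0.82).

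Igfbp4, a binding protein that mostly restrains IGF action, was higher in control BAT at 12 months than at 3 months, by 4.10-fold. It was 12.01, 11.32, 12.06 and 12.30 at 12 months, against 10.49, 10.13, 9.42, 9.75 and 9.64 at 3 months. The ages did not overlap, and the log2 fold change was 2.04 ± 0.61 (SE) with an adjusted p of 0.00972 in limma. It was called together with Igfbp6, as 2 of 9 members at a background of 7.03% of genes. This call was at the edge of the threshold: it was lost (adjusted p 0.0105 to 0.0328) without any 1 of the 5 arrays at 3 months or of replicates 1, 3 and 4 at 12 months, and without a filter on dim probes (0.0139). The second Igfbp4 probe was called as well (log2 fold change 2.54, adjusted p = 0.00399 in limma), and the probes ran together over the arrays (r = 0.98).

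Since all 4 control arrays at 12 months had Upk3b above 8 and the 5 at 3 months did not, age and this marker cannot be told apart here. In the same comparison 5 of 7 brown adipocyte markers were called lower, and 6 of 6 white adipocyte and 6 of 11 mesothelium markers higher. In BAT at 7 months Igfbp4 was 10.06, 11.00, 9.32 and 8.86 on HSLAKO arrays, against 12.20, 11.83, 11.94 and 11.32 on control arrays. The log2 fold change of -2.01 ± 0.64 (SE) had an adjusted p of 0.0454 in limma and did not pass. Over the classes Igfbp4 was 10.15 to 11.88 on Cdkn2a arrays, 11.32 to 12.33 on Upk3b arrays, 10.06 to 11.51 on Ucp1-low arrays and 8.86 to 11.94 on Ucp1-high arrays. ATGLAKO WAT showed the split within a label, with 12.27, 12.33, 11.96 and 12.16 on 4 Upk3b arrays and 9.26 on the other one. The gene closest to Igfbp4 was Apoe (r = 0.94), followed by Plvap (r = 0.92), which encodes an endothelial protein, and complement gene C2 (r = 0.91).

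Igfbp5, a binding protein of the extracellular matrix, was 4.76-fold lower in BAT labelled HSLAKO than in control BAT at 7 months. It was 7.87, 9.25, 9.87 and 9.50 on HSLAKO arrays, against 11.20, 11.51, 11.82 and 10.96 on control arrays. The groups did not overlap, and the log2 fold change of -2.25 ± 0.45 (SE) had an adjusted p of 0.00173 in limma. The call was lost without HSLAKO replicate 1 (adjusted p = 0.0260), without control replicate 3 (0.0122) and in the fit of only the compared groups (0.0352). DAKO BAT at that age had 10.50, 10.90, 11.32 and 9.36, which overlapped the controls (log2 fold change -0.86 ± 0.45 (SE), adjusted p = 0.266 in limma).

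At 3 months Igfbp5 lay on the other side of the controls. It was 10.49, 10.71, 11.18, 10.55 and 10.45 in DAKO BAT, against 8.82, 9.53, 9.94, 9.81 and 9.81 in control BAT, with no overlap, a log2 fold change of 1.09 ± 0.41 (SE) and an adjusted p of 0.0925 in limma. The HSLAKO effect differed between 7 and 3 months by -3.39 ± 0.63 (SE) on the log2 scale, with an adjusted p of 3.15e-04 in limma, as 1 of 2 members called at a background of 3.56% of genes. The control arrays at 7 months had Upk3b signal and those at 3 months did not, so this difference carries that marker too. In control BAT Igfbp5 was higher at 12 than at 3 months by a log2 fold change of 1.48 ± 0.43 (SE), adjusted p = 0.00781 in limma, which is below the fold minimum. Igfbp5 had wide ranges in each class, from 8.28 to 11.36 on Cdkn2a arrays and 7.87 to 10.70 on Ucp1-low arrays, against 10.14 to 11.82 on Upk3b arrays. Its closest genes were Ogn (r = 0.74), which encodes the matrix proteoglycan osteoglycin, Gdf10 (r = 0.73) and Pi16 (r = 0.71).

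Igfbp6, a binding protein that prefers IGF-II, had the largest difference of the 9 members between control BAT at 12 and at 3 months. It was 10.6-fold higher at 12 months. It was 10.27, 9.77, 9.93 and 10.63 at 12 months, against 6.86, 6.82, 6.42, 7.03 and 6.60 at 3 months. Its log2 fold change was 3.40 ± 0.57 (SE), with an adjusted p of 2.35e-05 in limma, and it stayed called in each of the 22 alternatives run for it. None of these leaves out the arrays at 12 months, which all had Upk3b signal, so age and this marker cannot be told apart here. In BAT at 7 months Igfbp6 was 9.75-fold lower in HSLAKO, with 6.55, 7.68, 6.73 and 6.07, against 10.26, 10.36, 9.84 and 9.71 in control BAT. The groups lay far apart, with a log2 fold change of -3.28 ± 0.60 (SE) and an adjusted p of 6.91e-04 in limma, and all 21 alternatives kept the call, none of which leaves out the Upk3b control arrays. In the same comparison, in which Igfbp5 was called too, 5 of 11 mesothelium and 1 of 6 white adipocyte markers were called lower, and their part in these results was not tested. The HSLAKO effect differed between 7 and 3 months by -4.85 ± 0.83 (SE), adjusted p = 1.64e-04 in limma.

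DAKO BAT at 7 months had Igfbp6 at 7.56, 8.67, 8.74 and 8.74, also below every control array, but the log2 fold change of -1.62 ± 0.60 (SE) had an adjusted p of 0.0895 in limma. At 12 months DAKO BAT had 9.81, 7.91, 7.66 and 8.28, where the Cdkn2a array was the high one. The log2 fold change of -1.74 ± 0.60 (SE) had an adjusted p of 0.0397 in limma. Without the Cdkn2a arrays it was -2.21, which is no test of genotype, since the high array was dropped. The control arrays at that age all had Upk3b above 8. HSLAKO BAT at 12 months split in the same way, into 11.00 and 10.41 on its Cdkn2a arrays and 7.77 and 8.71 on the others. Within ATGLAKO BAT at 7 months the Upk3b arrays had 10.24 and 10.74, near the control values, and the other arrays 7.93 and 8.15. At 3 months, where no BAT array had Upk3b signal, HSLAKO BAT was above the control arrays, with 8.23, 9.04, 7.56 and 8.41 against 6.86, 6.82, 6.42, 7.03 and 6.60 (log2 fold change 1.56 ± 0.57 (SE), adjusted p = 0.0656 in limma).

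Over the classes Igfbp6 was 8.74 to 11.00 on Cdkn2a arrays, 9.71 to 10.74 on Upk3b arrays, 6.55 to 8.95 on Ucp1-low arrays and 6.07 to 9.04 on Ucp1-high arrays. All Upk3b arrays lay above every array of the last pair of classes. The genes closest to Igfbp6 were Gata6 (r = 0.90), Vegfd (r = 0.89) and Ogn (r = 0.88). Without the Upk3b arrays r was 0.77, 0.75 and 0.76 (n = 56). Gata6 is a transcription factor of mesoderm and endoderm, and Vegfd a growth factor of lymphatic vessels.

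Igfbp7, a matrix protein that binds IGFs only weakly, was detected on all arrays and spanned 11.00 to 13.23. It was higher in control BAT at 12 months, with 12.37, 11.99, 13.23 and 13.04, against 11.66, 11.07, 11.43, 11.50 and 11.24 at 3 months. The log2 fold change of 1.28 ± 0.35 (SE) had an adjusted p of 0.00463 in limma and stayed below the fold minimum. At 3 months HSLAKO BAT had 12.20, 12.78, 12.41 and 11.98, all above the control arrays (log2 fold change 0.96 ± 0.35 (SE), adjusted p = 0.0626 in limma). Its median was 12.48 on Cdkn2a arrays, 12.62 on Upk3b arrays, 12.62 on Ucp1-low arrays and 11.80 on Ucp1-high arrays. Its closest genes were Bicc1, Mmp23 and Nav1, each with r = 0.88, and among the members r with Igfbp4 was 0.84.

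The same ages were compared in DAKO BAT. Between 12 and 3 months 0 members and 0% of genes were called, with 2 members (and 16.7% of genes) at an unadjusted p under 0.05. Igfals had the largest log2 fold change, -1.62 ± 0.68 (SE), adjusted p = 0.288 in limma. Against DAKO BAT at 12 and at 3 months, the arrays labelled DAKO BAT at 14 months gave 0 calls among members and 0% of genes, and at an unadjusted p under 0.05 there were 0 members in each, with 5.06 and 3.11% of genes. Igf1 was 9.35, 9.72, 8.85, 11.75 and 11.43 at 14 months, with the last 2 on Ucp1-low arrays. The change of the DAKO effect was tested at 7 and 12 against 3 months and called 0 members, with 1.44 and 0.946% of genes called. At an unadjusted p under 0.05 there were 7 and 3 members, with 26.9 and 22.2% of genes. For Igfbp6 these differences were -2.73 ± 0.81 (SE) and -2.85 ± 0.81 (SE), with adjusted p of 0.0267 and 0.0266 in limma, and for Igfbp5 -1.95 ± 0.61 (SE) and -1.94 ± 0.61 (SE), with adjusted p of 0.0358 and 0.0437. Control arrays had Upk3b signal at 7 and 12 months and not at 3 months, so these differences carry that marker too.

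DAKO BAT differed from the single knockouts in 0 called members at each age, where 0% of genes were called, or 0.00815% against HSLAKO at 7 months. At an unadjusted p under 0.05 there were 0, 2 and 2 members against ATGLAKO at 3, 7 and 12 months, with 5.83, 16.5 and 27.5% of genes, and 0, 3 and 0 members against HSLAKO, with 1.09, 16 and 3.77% of genes. Igfals came nearest. It was 6.11, 6.82, 4.29 and 4.54 in DAKO BAT at 7 months, against 10.66, 8.04, 6.92 and 7.19 in ATGLAKO BAT, with no overlap, a log2 fold change of -2.76 ± 0.72 (SE) and an adjusted p of 0.0491 in limma. The 2 highest ATGLAKO arrays were Upk3b arrays, and without these the log2 fold change was -1.61 with an adjusted p of 0.224. At 12 months it was -2.62 ± 0.72 (SE), adjusted p = 0.0573 in limma. Between DAKO and HSLAKO BAT the Igfals difference was -0.26 (95% interval -1.70 to 1.19) at 7 months and -0.03 (-1.47 to 1.41) at 12 months. ATGLAKO BAT itself gave 0 called members and 0% of genes against control BAT at 7 months, with 1 member (and 11.4% of genes) at an unadjusted p under 0.05.

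In WAT at 3 months no member was called for DAKO, ATGLAKO or HSLAKO against control, with 0% of genes called in each. At an unadjusted p under 0.05 there were 0 members and 5.77, 3.38 and 2.84% of genes. Igfals was 6.95, 5.25, 6.46 and 7.39 on arrays labelled DAKO WAT, against 7.87, 7.68 and 6.79 on control WAT arrays, and the groups overlapped. The BAT to WAT comparison within a genotype called no member either, with 0% of genes called in DAKO and in HSLAKO, 0.261% in ATGLAKO and 0.0163% in control, and 0 (0.97% of genes), 0 (1.34%), 3 (22.9%) and 1 (13.4%) members at an unadjusted p under 0.05. The test of a DAKO effect that differs between BAT and WAT called 0 members and 0% of genes, with 0 members and 4.93% of genes at an unadjusted p under 0.05. Igfbp6 was 7.54, 7.03, 7.97, 8.60 and 8.78 in ATGLAKO BAT, against 10.32, 10.19, 10.07, 10.13 and 7.80 in ATGLAKO WAT (log2 fold change -1.71 ± 0.54 (SE), adjusted p = 0.0511 in limma). The 4 high WAT arrays were the Upk3b ones, and without them the difference was 0.19, with 1 WAT array left. With the mouse as a random block, and names that differ by a leading letter read as 1 mouse (a setting chosen after seeing the data), 0 members were called in each genotype. In the 8 mice named on arrays of both tissues, Igfals was higher in BAT in 4 of 8 (differences -0.65 to 1.77, median 0.24) and Igf1 in 2 of 8 (-2.26 to 1.84, median -0.13).

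The wider pathway was read through a list of 76 symbols of ligands, receptors, adaptors, growth hormone signalling and binding protein proteases, of which 52 were tested. Ghr, the growth hormone receptor gene, and Htra3, a secreted serine protease gene, were called lower in the same comparisons with control BAT as Igfals. The control arrays of these comparisons all had Upk3b above 8, and a link between these genes and Igfals was not tested. In BAT at 7 months 2 of the 52 were called for DAKO against control and 2 for HSLAKO against control, Ghr and Htra3 in each, all lower, where 0.815 and 0.921% of all genes were called. At 12 months 2 were called lower for DAKO and 3 for HSLAKO, where Irs3, an insulin receptor substrate gene of rodent adipocytes, was the third. These shares of the list were near the 3.82 and 4.45% of all genes called at that age. Ghr averaged 10.11 ± 0.74 in DAKO BAT and 12.90 ± 0.10 in control BAT at 12 months (SD, n = 4 each), a log2 fold change of -2.79 ± 0.53 (SE) with an adjusted p of 3.11e-04 in limma. Htra3 averaged 8.38 ± 1.17 in DAKO BAT and 11.17 ± 0.28 in control BAT (SD, n = 4 each), a log2 fold change of -2.79 ± 0.59 (SE) with an adjusted p of 8.21e-04. The median log2 fold change of the 52 genes was 0.03, against 0.05 over all genes tested.

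Both genes were also among the 6 of the 52 called in control BAT at 12 against 3 months, all higher, where 7.03% of all genes were called. Igfals was not called there. The arrays at 12 months all had Upk3b signal and those at 3 months did not. Ghr was higher by a log2 fold change of 2.34 ± 0.51 (SE) and Htra3 by 2.99 ± 0.56 (SE). Beside them were Htra1 (2.21), the stanniocalcin gene Stc2 (1.73), the adaptor gene Grb10 (2.57) and Ccn2 (3.31), the gene of connective tissue growth factor. Ghr was 11.86 to 13.13 on the Upk3b arrays, against 8.63 to 10.94 on Cdkn2a, 9.26 to 10.86 on Ucp1-low and 10.11 to 11.92 on Ucp1-high arrays. Htra3 was 10.45 to 11.60 on the Upk3b arrays, against 6.45 to 7.66, 7.39 to 9.77 and 7.77 to 10.46 in the same order.

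Igf2, the gene of the other IGF ligand, was called in no comparison and was chosen for mention after its values were seen. On the 5 Cdkn2a arrays it was 13.58 and 10.14 in DAKO BAT at 7 months, 10.65 in DAKO BAT at 12 months and 11.57 and 5.43 in HSLAKO BAT at 12 months. It was 7.99 to 9.82 on Upk3b arrays, 5.78 to 7.69 on Ucp1-low arrays and 7.87 to 9.45 on Ucp1-high arrays. So 4 of the 5 Cdkn2a arrays lay above every other array and the fifth was the lowest of all 72.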

How the data were processed

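RNA of 72 adipose tissue samples was hybridised to Illumina bead arrays. The deposited raw intensities hold 1 bead signal per probe and array without normalization, and each comes with a detection p-value deposited by the authors. A second table holds the authors' normalized intensities on a linear scale, and the normalization is not named in the sources used here. The raw intensities of 25697 probes were background-corrected with normexp through the detection p-values, quantile-normalized and log2-transformed after an offset of 16 (neqc in limma 3.58.1, R 4.3.3, statmod 1.5.0). The filter kept 18083 probes of 12265 genes, those detected (p under 0.05) on 3 arrays or more. A probe had 1 gene symbol for 23978 probes and none for 1719. Each gene is given by the tested probe with the highest mean, and other probes are named. No arrays held identical values.

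One limma model over 17 groups (55 residual degrees of freedom) gave all comparisons, since the groups share 1 estimate of the spread, and p-values were adjusted over all tested probes by Benjamini-Hochberg. Calls required an adjusted p below 0.01 together with a change beyond 1.5 on the log2 scale, up or down. The members, the pathway and marker lists and the limits on Upk3b and Cdkn2a were chosen with earlier results of these data known. Named outside the members are, per member, the 3 genes with the highest Pearson correlation and the called pathway genes. The fit was tested on simulated data for the DAKO to control BAT comparison at 7 months (18083 probes), where it called 44% of 50 probes shifted by 1.5, 74% at 2, 96% at 3 and 92% at 4 on the log2 scale, and 1 unchanged probe. The shifted probes had a mean log2 signal above 8, and a probe had the same noise in every group. These shares thus do not cover Igfals, Igfbp3, Igf1r and Igfbp2, with means of 7.13, 6.16, 5.33 and 4.93, or groups of mixed array classes. Within a tissue, same-numbered arrays of different groups carry different mouse names. Across BAT and WAT some numbers mark the same mouse, as DAKO replicates 1, 2 and 3 do at 3 months. Same-numbered arrays deviated together in every pair (correlation over 0.1) in 2 of 26 comparisons. The number of arrays limits the precision. The slide of an array is not given in the sources used here.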

Additional observations from a re-analysis of the deposited data

Results flagged for a closer look

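Over 144 sets of a member in a group of 4 or 5 arrays, 12 held an array far from the others. Chance flags about 1 in 20 sets when the sets are independent and the arrays of a group are alike. Here groups mixed array classes and some arrays were flagged in more than 1 member, so the 12 cannot be set against that share. On arrays labelled ATGLAKO WAT, replicate 5, the 1 array there without Upk3b signal, was lowest in Igf1 (7.18, others 10.50 to 11.51), Igfbp4 (9.26, others 11.96 to 12.33) and Igfbp6 (7.80, others 10.07 to 10.32). Igfbp2 stood high at 8.10 on the Cdkn2a array of DAKO BAT at 12 months (others 4.25 to 4.40), at 5.61 on ATGLAKO BAT replicate 5 at 3 months (others 4.29 to 4.41) and at 5.16 on DAKO BAT replicate 4 at 14 months (others 4.27 to 4.34). That last array was also low in Igfbp5 (8.10, others 10.13 to 10.64). HSLAKO BAT replicate 3 at 12 months was low in Igfbp4 (9.55, others 11.15 to 11.34) and Igfbp7 (11.93, others 12.40 to 12.48). Single values apart from their group were Igf1r at 4.84 on ATGLAKO BAT replicate 3 at 7 months (others 5.32 to 5.39), Igfbp3 at 6.39 on DAKO WAT replicate 4 (others 5.27 to 5.44) and Igfbp6 at 7.56 on DAKO BAT replicate 1 at 7 months (others 8.67 to 8.74).

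Of 81 differences of a genotype effect between ages or tissues, 2 had an adjusted p under 0.01 in limma. They were the HSLAKO effect in BAT at 7 against 3 months in Igfbp5 (-3.39 on the log2 scale) and in Igfbp6 (-4.85), where 3.56% of all genes were called. The cause was not tested, and the control arrays at 7 months differ from those at 3 months in Upk3b.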

How the results depend on the processing

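Of the alternatives that left out no single array, 369 counts of called members were the same and 33 moved. The share of all genes called was counted under the main setting only. These counts thus do not show whether members gained or lost calls more than other genes did. With an adjusted p under 0.05 the count was 1 for ATGLAKO against control BAT at 12 months and DAKO against ATGLAKO BAT at 7 months, and 2 for DAKO against control BAT at 12 months and for the DAKO effect at 7 and at 12 against 3 months. With array weights, whose estimation stopped before convergence, it was 4 for control BAT at 12 against 3 months, 3 for ATGLAKO and for DAKO against control BAT at 12 months and for BAT against WAT in ATGLAKO, 2 for ATGLAKO against control WAT, DAKO against ATGLAKO BAT at 12 months and the DAKO effect at both ages, and 1 for DAKO and for HSLAKO against control BAT at 3 months and for DAKO BAT at 14 against 12 months. In control BAT at 12 against 3 months it was 1 without a filter on dim probes, 4 without a fold minimum and 5 with scaling to a common median. That scaling also gave 3 for BAT against WAT in ATGLAKO, 5 for HSLAKO against control BAT at 7 months and 1 for the DAKO effect at 12 months. In fits of the compared groups alone it was 0 for DAKO against control BAT at 7 and at 12 months, 1 for HSLAKO against control BAT at 3 and at 7 months, and 3 and 2 for the DAKO effect at 7 and 12 months. Without the Cdkn2a arrays it was 0 for DAKO at 7 months and HSLAKO at 12 months against control BAT, 3 for DAKO against control BAT at 12 months and 1 for the DAKO effect at 12 months. The DAKO array left out at 12 months was high in Igfbp2 and Igfbp6, so the added calls are no test of genotype.

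Leaving out 1 array at a time gave 0 to 1 for ATGLAKO against control BAT at 12 months, BAT against WAT in ATGLAKO and DAKO against ATGLAKO BAT at 7 and 12 months, 1 to 3 for control BAT at 12 against 3 months and 2 to 3 for HSLAKO against control BAT at 7 months. The 1 came for Igfbp6 without ATGLAKO BAT replicate 4 or without ATGLAKO WAT replicate 5, and for Igfals without DAKO BAT replicate 2 at 7 months or 3 at 12 months. With the replicate number as a block the count in control BAT at 12 against 3 months was 1, since Igfbp4 was no longer called (log2 fold change 1.97, adjusted p 0.0168 in limma), and no other count moved. In control BAT at these ages the numbers mark different mice.

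Signs turned in differences that were not called: with array weights for Igf1 (0.32) and Igfbp3 (-0.45) in DAKO against control BAT at 12 months, and for Igfbp3 without the Cdkn2a arrays (-0.55). Without single arrays Igfbp3 ran from -0.55 to 1.10 there and from -0.28 to 0.47 at 3 months, and Igfbp2 at 7 months from -0.62 to 0.23, and the second Igfbp2 probe gave 0.033. Igfbp6 in ATGLAKO BAT against WAT was 0.19 without the Upk3b arrays, which left 1 WAT array. The cause was not tested. No value without Upk3b arrays exists for comparisons with control BAT at 7 or 12 months, and a slide block was not run. Probes near background, such as those of Igfbp2 and Igf1r, limit what small differences can show.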
